A study of Gossypium barbadense and Gossypium hirsutum with 72 samples.

Results

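Small RNA was sequenced from shoot apices of 2 Gossypium barbadense (sea-island cotton) lines at the pre-squaring stage, before flower buds show. The comparison set 3 libraries of Xinhai16, a nulliplex-branch line (miGb2np), against 3 libraries of Hai1, a normal-branch line (miGb2WT). These are 6 of the 72 samples of the series, which also holds seedling and squaring stages, G. hirsutum lines and mRNA libraries. By the sample labels the sampled Xinhai16 plants carried about 6 leaves and the Hai1 plants about 8. Groups used for comparison below were the same lines as seedlings (2 leaves in both) and at squaring (9 leaves in Xinhai16, 11 in Hai1), and at pre-squaring the G. hirsutum lines 3798 (nulliplex, 5 leaves) and Huazhong 94-3130 (normal, 6 leaves). The plants were field grown, and the lines were inbred by repeated selfing. Line, branch type and leaf number went together in this design, so effects of the 3 cannot be told apart. The study called its replicates biological, while the labels give only a replicate number, so p values measure the spread between these libraries. The miRNAs described are the rows of the deposited count table whose name starts with miR, taken by single name and summed by family number.

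Cotton normally flowers on side shoots called fruiting branches, which nulliplex-branch plants lack, setting their flowers along the main stem instead. Plant miRNAs are short RNAs, cut from hairpin precursors, that guide Argonaute proteins to complementary mRNAs, which are then cleaved or translated less. In shoot apices miR156 and miR157 limit SPL transcription factors and hold plants juvenile, miR172 limits AP2-like repressors of flowering, and miR165 and miR166 limit the HD-ZIP III factors of the meristem and of leaf polarity. One family is made from several loci whose mature products differ by few or no bases. A family sum therefore asks how much of a miRNA was read, and a single name asks under which database entry it was listed. Since the apex is a mixed tissue, fewer cells of a type and less RNA per cell cannot be told apart.

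The 6 libraries held 951316 to 1180018 miRNA reads. Known names took 98.07% to 98.46% of these reads and predicted miRNAs the rest. Reads were found for 385 of the 712 known names in the table, which belong to 344 families. Between 235 and 256 names had reads in each miGb2np library and between 260 and 272 in each miGb2WT library. miR166a-3p alone took 43.9%, 40.7% and 39.7% of the reads in miGb2np and 36.7%, 37.6% and 41.0% in miGb2WT. Together with miR3954 and miR157a-5p it held 62.3% to 66.4% of each library, so values are given below as RPM, the reads of a miRNA scaled to 1000000 miRNA reads of its library, beside fitted changes that use TMM scaling. The fitted log2 fold change of miGb2np over miGb2WT (log2FC) lay above the log2 ratio of RPM by a median of 0.165 over 217 families.

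At an adjusted p under 0.05, miR165, miR168, miR390 and miR399 were among the families higher in miGb2np and miR858 among those lower. Also past this threshold were 5 higher families with no read in miGb2WT and 8 lower ones with no read in miGb2np. These 5 and 8 entered the test only through the line with reads, so their calls are a description. By the threshold of the study for a differentially expressed miRNA (DEM), an adjusted p under 0.001 with an absolute log2FC over 1, edgeR called 0 of 230 families (0% higher, 0% lower) and 0 of 246 known names, and the smallest adjusted p was 0.00123 for a family and 0.00126 for a name. An unadjusted p under 0.05 was found for 67 families (29.1%) and 74 names (30.1%). At the same DEM threshold DESeq2 called 10 families higher and 13 lower, and limma 4 and 7, so the 0 does not show that the lines were alike. At the 5% threshold 22 families (9.57%) were higher and 20 (8.7%) lower in miGb2np. For single names the counts were 23 (9.35%) and 24 (9.76%). Families and names with no read in one line are included in these counts and shares. Of 141 predicted miRNAs tested, 10 (7.09%) were higher and 10 (7.09%) lower. "Rose" and "fell" below refer to this 5% threshold. Without miGb2WT replicate 1, 11 families were higher and 7 lower, and without miGb2WT replicate 2 13 were lower. In RPM the 3 libraries of each line did not overlap for 31 families (13.5%) that were higher and 71 (30.9%) that were lower in miGb2np. The median log2 ratio of RPM over 217 families was -0.23, beside a median fitted log2FC of -0.08 over 230. Counts in RPM thus lean to the lower side more than the fits.

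**Figure D1:**
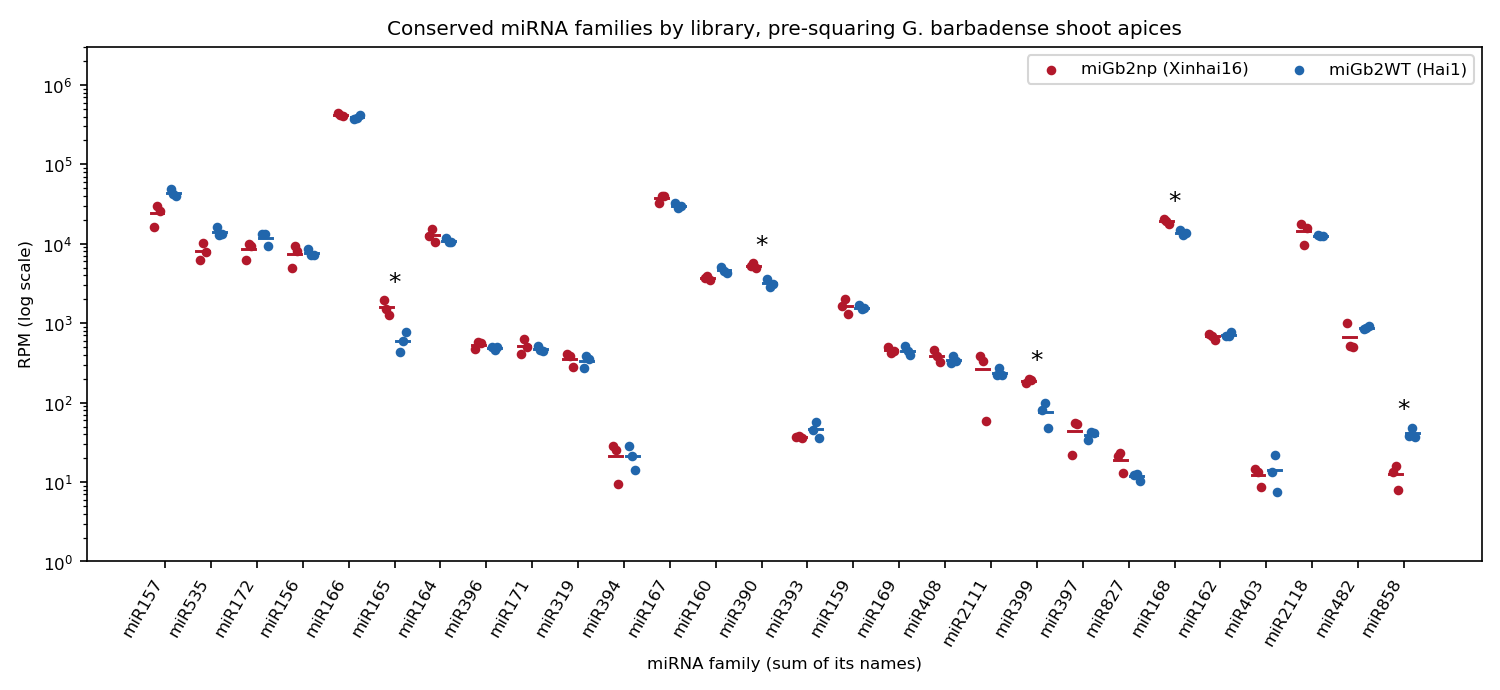
RPM (log axis) of conserved miRNA families, ordered by the class of their targets, in the 3 miGb2np libraries (red, left) and the 3 miGb2WT libraries (blue, right). Points are libraries, bars are group means, and an asterisk marks an adjusted p under 0.05 (edgeR). miR165, miR390, miR399 and miR168 lie higher in miGb2np and miR858 lower, with no overlap between the lines.

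Of the miRNAs that limit HD-ZIP III factors, miR165 rose and miR166, the most abundant family, did not pass the test. miR165 had 1955, 1521 and 1267 RPM in miGb2np, against 435, 600 and 773 RPM in miGb2WT. The lowest nulliplex library lay above the highest normal one. The means were 1581 ± 348 and 603 ± 169 RPM (SD, n = 3 each), with a log2FC of 1.56 (SE 0.27, adjusted p = 0.017). Its adjusted p was 0.0619 without miGb2WT replicate 1 and 0.0715 without miGb2WT replicate 2. Of its names, miR165a-5p, from the strand of the hairpin that is usually discarded, had 608, 713 and 652 reads in miGb2np and 194, 162 and 210 in miGb2WT (log2FC 1.82, adjusted p = 0.00126). The guide strand, miR165a-3p, had 1699, 992 and 804 reads in miGb2np and 262, 409 and 618 in miGb2WT (adjusted p = 0.101). The miR165 and miR166 guide strands are near-identical in plants, so reads could be shared out between these entries. miR166 had 443739, 416584 and 400698 RPM in miGb2np, against 374120, 381126 and 416694 RPM in miGb2WT (log2FC 0.27, adjusted p = 0.117), and the lines overlapped.

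None of the 4 phase change and flowering families tested passed the threshold, beside 18.3% of all families. Even so, miR157 and miR535 were lower in every nulliplex library. miR157 had 16447, 29964 and 26034 RPM in miGb2np, against 49119, 42792 and 39413 RPM in miGb2WT (log2FC -0.70, SE 0.23, adjusted p = 0.116). miR535, a relative of miR156 in sequence, averaged 8166 ± 1980 RPM in miGb2np and 14164 ± 1859 RPM in miGb2WT (log2FC -0.64, adjusted p = 0.0926). Both sets of libraries were without overlap, as in 30.9% of all families. miR156 overlapped, with 7486 ± 2288 RPM in miGb2np and 7678 ± 838 RPM in miGb2WT (adjusted p = 0.753), and its small log2FC of 0.12 turned to -0.04 under library-total scaling. miR172, which acts later than miR156 in the juvenile to adult transition, also overlapped, with 8584 ± 2011 and 11938 ± 2317 RPM (log2FC -0.31, adjusted p = 0.452). The median log2FC of these 4 families was -0.48, beside -0.08 over all 230 families.

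The ratio of miR156 plus miR157 to miR172 reads, which needs no library scaling, was 3.41, 3.93 and 3.61 in miGb2np and 4.35, 3.77 and 5.03 in miGb2WT. One normal library lay within the nulliplex range. On the log2 scale the means were 1.87 ± 0.10 and 2.12 ± 0.21 (SD, n = 3 each), a difference of -0.26 (exact permutation test, two-sided, p = 0.2). With 3 libraries against 3 this test cannot give a p below 0.1.

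In the small RNA pathway miR168, which limits ARGONAUTE1, rose. It had 20223, 19355 and 17894 RPM in miGb2np, against 14868, 12865 and 13760 RPM in miGb2WT. Every nulliplex library lay above every normal one. The log2FC was 0.63 (SE 0.10, adjusted p = 0.014), and the adjusted p was 0.0557 without miGb2WT replicate 1 and 0.0745 without replicate 3, and it was 0.212 in the fit of all 36 libraries. The name miR168a-5p passed (adjusted p = 0.020), while miR168a-3p had 421, 429 and 385 reads in miGb2np and 368, 373 and 447 in miGb2WT (adjusted p = 0.780). miR162, which limits DICER-LIKE1, averaged 684 ± 58.3 RPM in miGb2np and 715 ± 44.3 RPM in miGb2WT and overlapped (adjusted p = 0.599). miR403, which limits ARGONAUTE2, was rare, at 12.2 and 14.3 RPM (adjusted p = 0.948).

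Of 4 auxin signalling families tested 1 rose, beside 9.57% of all families. miR390, which triggers the TAS3 small interfering RNAs that limit auxin response factors, had 5246, 5714 and 4939 RPM in miGb2np, against 3639, 2895 and 3113 RPM in miGb2WT. The lines were well separated, with a log2FC of 0.88 (SE 0.12, adjusted p = 0.0092), and the adjusted p stayed between 0.0205 and 0.0462 when each library was left out. miR167, which limits ARF6 and ARF8, averaged 37250 ± 4075 RPM in miGb2np and 30062 ± 2221 RPM in miGb2WT without overlap (log2FC 0.47, adjusted p = 0.0605). miR160, which limits ARF10 and its relatives, was lower without overlap, at 3714 ± 229 and 4636 ± 474 RPM (log2FC -0.16, adjusted p = 0.393). Of all families 13.5% were higher and 30.9% lower without overlap. miR393, which limits the TIR1 auxin receptors, averaged 36.8 ± 0.986 and 46.0 ± 11.2 RPM (adjusted p = 0.689). The median log2FC of the 4 was 0.16.

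Of 5 families linked to nutrients and copper proteins 1 rose, beside 9.57% of all families. miR399, which in phosphate starvation limits the ubiquitin-conjugating enzyme PHO2, had 175, 200 and 191 RPM in miGb2np, against 81.1, 98.8 and 47.6 RPM in miGb2WT (log2FC 1.48, SE 0.28, adjusted p = 0.023). All its reads were listed as miR399f, and the lines did not overlap. The call was lost without any 1 of the 3 miGb2np replicates or miGb2WT replicate 1 (adjusted p = 0.0554 to 0.0678). miR408, which limits copper proteins, averaged 392 ± 65.3 RPM in miGb2np and 346 ± 36.1 RPM in miGb2WT (adjusted p = 0.206). miR397, miR827 and miR2111 did not pass either (adjusted p = 0.619, 0.173 and 0.775).

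None of the 5 meristem and organ boundary families passed the test, beside 18.3% of all families. miR164, which limits CUC boundary genes, averaged 12754 ± 2416 RPM in miGb2np and 10970 ± 667 RPM in miGb2WT (log2FC 0.37, adjusted p = 0.116). miR396, which limits growth-regulating factors, averaged 536 ± 58.0 and 485 ± 19.6 RPM (adjusted p = 0.173), miR171, which limits HAM-type GRAS factors, 515 ± 117 and 473 ± 34.2 RPM (adjusted p = 0.360), and miR319, which limits TCP factors, 356 ± 68.6 and 338 ± 58.8 RPM (adjusted p = 0.480). Their log2FC ran between 0.14 for miR394 and 0.37 for miR164. miR159, which limits GAMYB factors, averaged 1658 ± 371 RPM in miGb2np and 1575 ± 89.1 RPM in miGb2WT (adjusted p = 0.392), and miR169, which limits NF-YA subunits, 455 ± 38.6 and 450.5 ± 58.7 RPM (adjusted p = 0.512).

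Among 3 families that limit NBS-LRR resistance genes or MYB factors miR858 fell, beside 8.7% of all families. This MYB-directed miRNA had 16, 18 and 9 reads in miGb2np, against 40, 46 and 40 in miGb2WT, or 12.5 ± 4.22 and 41.3 ± 6.13 RPM (log2FC -1.56, adjusted p = 0.025). The groups did not overlap, but the call was lost without any 1 of the 6 libraries (adjusted p = 0.0508 to 0.106) and in the fit of all 36 libraries (0.732). miR2118 averaged 14376 ± 4273 RPM in miGb2np and 12657 ± 267 RPM in miGb2WT (adjusted p = 0.462) and miR482 672 ± 278 and 877 ± 30.5 RPM (adjusted p = 0.682). In the list of leaf and stress families, miR858 was the 1 of 7 tested that passed, beside 18.3% of all families. miR415 had 30, 464 and 43 reads in miGb2np and 754, 816 and 674 in miGb2WT, and 1 nulliplex library set its spread (adjusted p = 0.283).

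Among 17 families first described in cotton, or otherwise abundant here, 2 rose and 2 fell, beside 9.57% and 8.7% of all families. miR2947 had 3485, 4535 and 3622 RPM in miGb2np, against 2637, 2620 and 2689 RPM in miGb2WT (log2FC 0.71, SE 0.09, adjusted p = 0.0081), and it kept its call when each library was left out. miR2950 averaged 530.1 ± 56.4 RPM in miGb2np and 426 ± 26.0 RPM in miGb2WT (log2FC 0.47, adjusted p = 0.031), a call that was lost without any 1 of the 6 libraries (adjusted p = 0.0619 to 0.131), with no filter (0.0778), with library totals (0.160) and in the fit of all 36 libraries (0.483). miR2949 averaged 611 ± 99.3 and 1165 ± 148 RPM (log2FC -0.76, adjusted p = 0.025) and miR7495 450.3 ± 34.1 and 862 ± 196 RPM (log2FC -0.76, adjusted p = 0.033). The miR2949 call was lost without miGb2WT replicate 1 or 2 (adjusted p = 0.0576 and 0.0677), and that of miR7495 without any 1 miGb2np replicate or miGb2WT replicate 1 (adjusted p = 0.0619 to 0.109). miR3954, the family with the second-most reads, averaged 203727 ± 37132 RPM in miGb2np and 226993 ± 19043 RPM in miGb2WT and overlapped (adjusted p = 0.959). miR894, which belongs to the leaf and stress list, was higher without overlap but did not pass, at 26006 ± 7110 and 19014 ± 1812 RPM (adjusted p = 0.149).

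**Figure D2:**
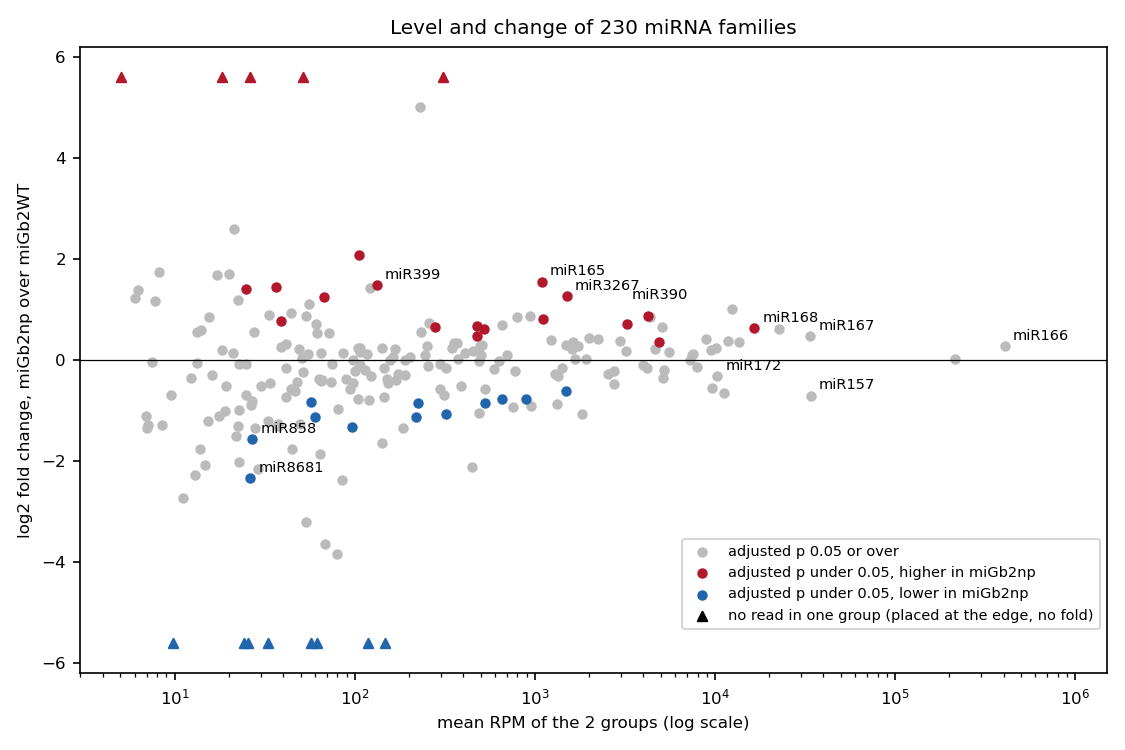
Mean RPM of the 2 groups (log axis) and fitted log2FC of miGb2np over miGb2WT for the 230 families tested, coloured where the adjusted p was under 0.05 (red higher, blue lower in miGb2np). Triangles at the edges are families with no read in one line, 5 read in miGb2np and 8 in miGb2WT, for which no fold is drawn. Most families above 1000 RPM lie within a log2FC of 1.

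The other families that rose with reads in both lines were miR8155, miR8636, miR8702, miR3267, miR8638, miR1516, miR823, miR8701, miR8637, miR8715 and miR7506, and the roles of these are not described here. miR8155 had 269, 105 and 202 reads in miGb2np and 36, 49 and 52 in miGb2WT, the largest log2FC of a rise with reads in both lines (2.07, adjusted p = 0.024). miR3267, singled out after its values were seen, was the most abundant rise over 2-fold, with 1947, 2226 and 1966 RPM in miGb2np, against 934, 842 and 1078 RPM in miGb2WT (log2FC 1.27, SE 0.13, adjusted p = 0.0041). miR1516, chosen in the same way, varied little, at 1354 ± 13.1 RPM in miGb2np and 864 ± 83.1 RPM in miGb2WT (log2FC 0.82, adjusted p = 0.0071). miR8636 averaged 52.0 ± 6.89 and 21.02 ± 3.64 RPM and miR8702 35.0 ± 2.98 and 14.8 ± 2.89 RPM. Without miGb2WT replicate 1 the adjusted p was 0.105 for miR8155, 0.0559 for miR8636 and 0.0743 for miR8702. miR8155 and miR8702 each lost the call without 4 other libraries too.

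Of the families that fell with reads in both lines, miR8681 fell most. It had 13, 7 and 7 reads in miGb2np and 41, 44 and 52 in miGb2WT (log2FC -2.33, SE 0.35, adjusted p = 0.013), with an adjusted p of 0.0559 without miGb2WT replicate 1 and 0.0535 without replicate 3, and of 0.834 in the fit of all 36 libraries. miR7743, miR5142, miR8646, miR8713, miR8643, miR8632, miR6033 and miR2089 made up the rest beside the families already described, with a log2FC between -1.32 for miR7743 and -0.62 for miR2089. The most abundant was miR2089, at 1097 ± 73.2 RPM in miGb2np and 1886 ± 115 RPM in miGb2WT (adjusted p = 0.014). These 8 were named after their values were seen.

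Some names were read in every library of one line and in none of the other. There were 19 such names, 6 in miGb2np and 13 in miGb2WT, of which 17 were tested and 17 had an adjusted p under 0.05, beside 19.1% of all known names. Being chosen for this pattern, they are given as a description. miR5236a was the most abundant of the 6, with 691, 720 and 716 reads in miGb2np and none among 3070467 reads of miGb2WT, which allows up to 0.977 RPM (3 counts over the group). It was at least 631-fold higher in miGb2np on pooled reads (adjusted p = 0.00126). miR5037a had 41, 65 and 73 reads in miGb2np and none in miGb2WT, at least 53.1-fold higher (adjusted p = 0.00665). Both names had reads in all 6 other Xinhai16 libraries, from seedling and squaring apices, and in 0 of 6 other Hai1 libraries and 0 of 18 G. hirsutum libraries. Reads of both species had been aligned to the G. hirsutum genome with settings for perfect matches, and the part of this step in the result was not tested.

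miR7838, with 43, 38 and 46 reads in miGb2np and none in miGb2WT, was also read in 4 other Xinhai16 libraries and in no other Hai1 library. miR5072 was the reverse. It had 112, 141 and 102 reads in miGb2np and none in miGb2WT, while 0 of 6 other Xinhai16 and 4 of 6 other Hai1 libraries held reads of it. miR5748, with 13, 11 and 11 reads in miGb2np, was likewise read in 3 other Hai1 libraries and no other Xinhai16 library, and its adjusted p of 0.0303 as a family ran between 0.0369 and 0.229 as libraries were left out, lost in all but 1 case (without miGb2WT replicate 2). In the fit of all 36 libraries the family calls of miR7838, miR5072 and miR5748 were lost (adjusted p = 0.1595, 0.166 and 0.278). miR5072 also came and went between replicates, with 63, 0 and 0 reads in the Hai1 seedling libraries. Of the 19 names, 13 had reads in the opposite line at another stage.

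Of the 13 names read only in miGb2WT, miR8136 led those whose whole family was absent from miGb2np. It had 346, 295 and 261 reads in miGb2WT and none among 3450495 reads of miGb2np, which allows up to 0.869 RPM, and was at least 338-fold lower on pooled reads (adjusted p = 0.00164). In seedlings it was read at 163 ± 85.0 RPM in Xinhai16 and 167 ± 32.4 RPM in Hai1, and at squaring in no Xinhai16 library and at 360 ± 37.4 RPM in Hai1 (SD, n = 3 each). miR2913 had 248, 215 and 269 reads in miGb2WT and miR4354 119, 113 and 117, at least 274-fold and 131-fold lower in miGb2np. Both names also came and went between replicates of one group. In the squaring Xinhai16 libraries miR2913 had 0, 0 and 376 reads and miR4354 205, 0 and 0. Folds of such names are bounds only if the absence reflects sampling alone, which was not tested. miR1886g-3p, miR8677, miR5568a and miR8167a followed, on the same condition, with at least 75.7-fold, 58.4-fold, 55.4-fold and 22.5-fold. In the fit of all 36 libraries the calls of miR4354 and of these 4 families were lost (adjusted p = 0.0754 to 0.278). Without miGb2WT replicate 1 the adjusted p was 0.0529 for the miR5568 family and 0.0743 for miR8167, which also lost the call without either other miGb2WT replicate. miR7496a varied most, with 151, 184 and 34 reads in miGb2WT (family adjusted p = 0.025, and 0.114 without miGb2WT replicate 1, 0.0851 without replicate 2 and 0.0524 without miGb2np replicate 1).

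**Figure D3:**
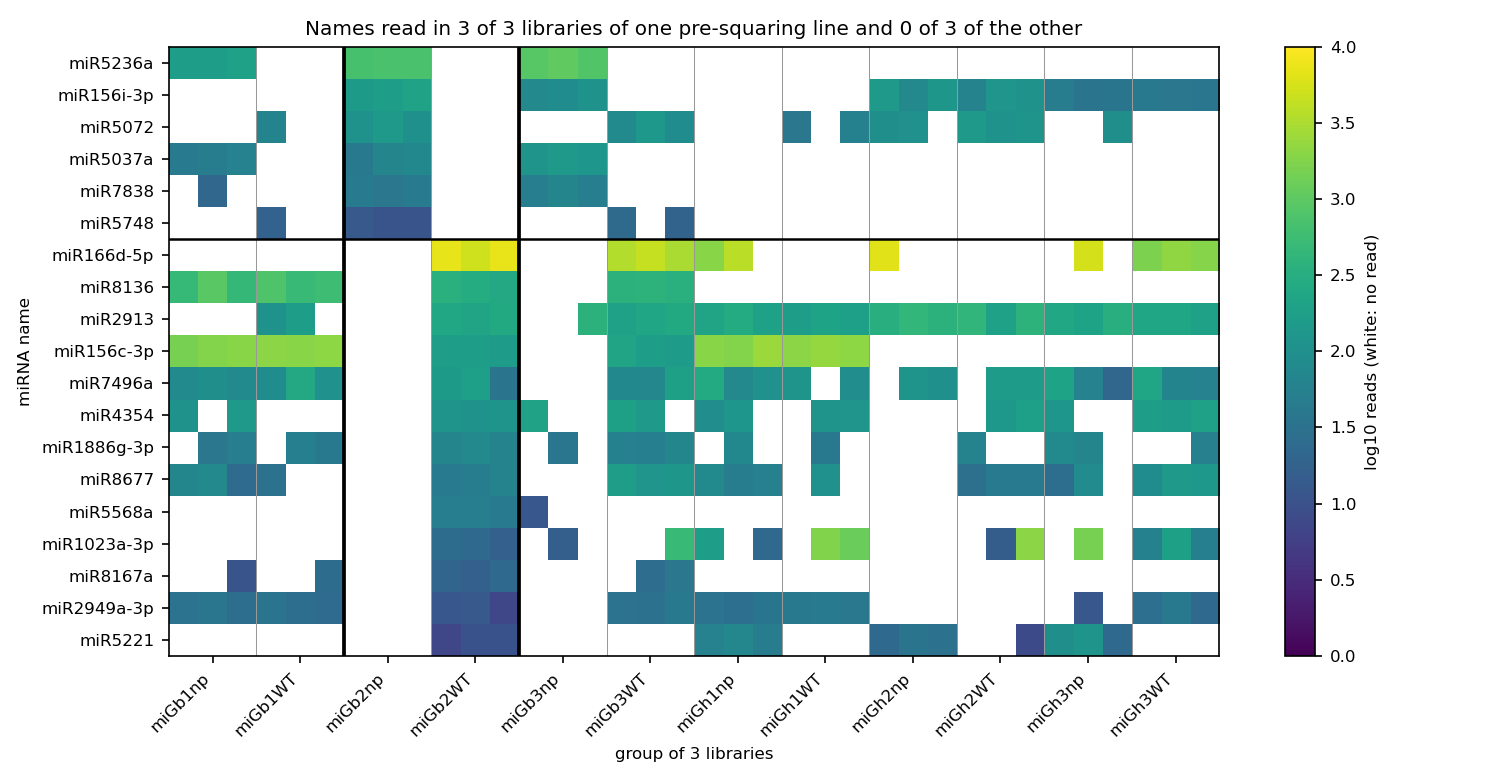
Reads (colour, log10 scale, white for none) of the 19 names found in 3 of 3 libraries of one pre-squaring G. barbadense line and 0 of 3 of the other, in all 36 small RNA libraries by group. The thick lines frame miGb2np and miGb2WT, and the horizontal line parts the 6 names of miGb2np from the 13 of miGb2WT. miR5236a and miR5037a are filled in all Xinhai16 columns (miGb1np, miGb2np, miGb3np) and empty elsewhere.

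For 4 of the 19 names the family was read in both lines under other names: miR166d-5p, miR156c-3p, miR156i-3p and miR2949a-3p. miR156i-3p had 151, 171 and 203 reads in miGb2np and none in miGb2WT, while miR156c-3p had none in miGb2np and 171, 168 and 160 in miGb2WT. As single names these gave an adjusted p of 0.0021 and 0.00147, in opposite directions. Their sum was 152 ± 24.3 RPM in miGb2np and 163 ± 13.6 RPM in miGb2WT. A set of miR166 names behaved likewise. The 3 names miR166d-5p, miR166g-5p and miR166i never shared a library, and together they held 5469, 10296 and 4675 reads in miGb2np and 7101, 5118 and 7495 in miGb2WT. miR166d-5p, with all of the miGb2WT reads, was among the names with the lowest adjusted p (0.00126), while the sums of the set overlapped between the lines.

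Names also switched between replicates of one line. Among all names, 37 from 30 families had no read in one library and at least 200 reads in another of the same group, 19 of them in miGb2np and 23 in miGb2WT. miR167h carried 38288, 44493 and 45144 reads in miGb2np and 33609 in miGb2WT replicate 1, while in miGb2WT replicates 2 and 3 it had none and miR167a-5p had 26322 and 31962. Summed, the pair averaged 37137 ± 4067 RPM in miGb2np and 29859 ± 2197 RPM in miGb2WT. miR482b and miR482d exchanged reads in miGb2np replicate 3, and miR171b and miR171c-5p in miGb2np replicate 2, with 1 name in each library holding all reads of the set. These 5 sets were picked after their counts were seen and are a description. Of the 37 names, 15 had reads in 1 library only, 13 could be tested and 0 had an adjusted p under 0.05 (edgeR). Of these names, 8 belonged to 4 families whose sums stayed within 2-fold among the replicates of both lines.

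**Figure D4:**
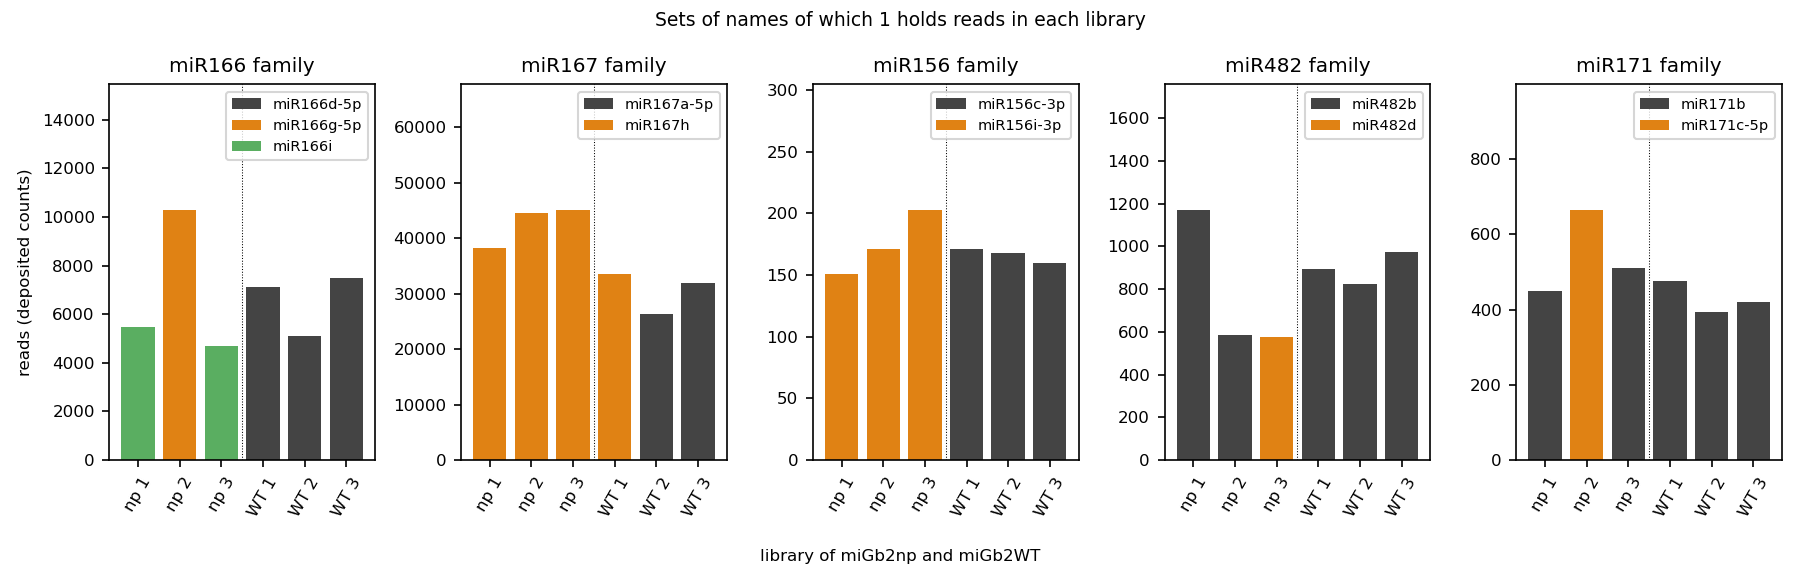
Deposited reads of 5 sets of names in the 3 miGb2np libraries (np, left) and the 3 miGb2WT libraries (WT, right), coloured by name. Each library holds reads of 1 name of a set, and the colour changes between lines (miR166, miR156) or within one (miR166, miR167, miR482, miR171).

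The study followed 11 names from this comparison to target genes. Of these 11, 7 had reads in 1 of the 6 libraries and only miR156i-3p was read in all 3 libraries of a line, and it was the 1 that could be tested. miR1077-5p had 18656 reads in miGb2np replicate 1 and none in the other 5 libraries. miR9484 had 3881 and 2815 reads in miGb2np replicates 1 and 2 and none in replicate 3, and miR5537 had 966 and 757 in replicates 1 and 3 and none in replicate 2, with no read of either in miGb2WT. On the side of the normal line, miR5641 had 1147, miR5291a 317 and miR862-3p 296 reads in miGb2WT replicate 3 alone, miR4393b had 2097 in replicate 2 alone and miR5298d 279 in replicate 1 alone. Each of these normal-line names thus rests on a single library. miR156i-3p, miR482d and miR166i belong to the sets of names above in which each library held reads of 1 name. The sums of their families did not pass the test.

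The target genes were listed by the study from these same samples, so their counts are no independent evidence of a direction. In the mRNA libraries of these apices 32 of 32 listed targets were tested, 5 were called higher and 23 lower in Gb2np by the DEG threshold (adjusted p under 0.001 and absolute log2FC over 1), beside 4.94% and 4.94% of 46495 genes. There were 28 calls in all, against 13 without Gb2np replicate 2 or 3 and 15 without Gb2WT replicate 2. HB-8 (CotAD_75643), an HD-ZIP III gene listed under miR166i, had 1.63, 0.827 and 1.19 RPKM in Gb2np, against 3.98, 4.80 and 4.34 RPKM in Gb2WT (log2FC -1.87, adjusted p = 0.000182). All nulliplex libraries were lower. Beside it the miR165 family rose, but its guide strand alone did not pass. miR165 averaged 1581 RPM in miGb2np and miR166, which did not pass, 420341 RPM. miR166i was read in 2 of 3 nulliplex libraries. Whether any of these miRNAs acts on HB-8 here was not tested. SEP3 (CotAD_35367), which encodes a floral organ MADS-domain factor and was listed under miR5641, had 3.56, 2.21 and 2.39 RPKM in Gb2np, against 1.01, 0.111 and 0.278 RPKM in Gb2WT (adjusted p = 0.00242), which missed the DEG threshold, and miR5641 itself was read in 1 normal library.

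RPP8 (CotAD_34619), a resistance gene homologue listed under miR482d, averaged 0.00537 RPKM in Gb2np and 0.250 RPKM in Gb2WT (adjusted p = 0.000227), while the miR482 family did not pass. GAUT12 (CotAD_54581), a cell wall glycosyltransferase homologue listed under miR156i-3p, averaged 0.996 ± 0.561 RPKM in Gb2np and 5.40 ± 1.24 RPKM in Gb2WT (adjusted p = 0.000649). The miR156 family did not pass, nor did the sum of miR156i-3p and miR156c-3p set the lines apart. Of 10 genes listed under miR9484, 8 were called, all lower in Gb2np, among them the PDR5 homologue CotAD_47999 at 6.05 ± 0.396 and 14.6 ± 1.05 RPKM. miR9484 itself had no read in 1 of the nulliplex libraries and no read in any normal library.

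As markers of expanded green leaf, 4 genes were read off in the mRNA libraries. The study had listed these 4 among genes that differed between its apices, so their difference was fixed by selection and the values are a description. CA1, a carbonic anhydrase, averaged 59.1 ± 1.49 RPKM in Gb2np and 21.7 ± 5.37 RPKM in Gb2WT. GGR, of chlorophyll and isoprenoid synthesis, averaged 17.7 ± 1.78 and 2.73 ± 0.949 RPKM, and TROL, a thylakoid anchor protein, 20.9 ± 1.06 and 8.90 ± 0.662 RPKM. These 3 were past the DEG threshold, as 4.94% of all genes were, and the fourth, a ferredoxin-related gene, averaged 11.5 ± 0.638 and 5.51 ± 2.06 RPKM (adjusted p = 0.00261, which missed the DEG threshold). In all 4 the lowest nulliplex library lay above the highest normal library, but the share of all genes with such a gap was not counted. What part leaf tissue has in the miRNA differences was not tested.

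The same branch comparison at other stages asks which of these differences belong to pre-squaring, and miR156, miR157 and miR166 differed more between the lines at squaring. The contrast of the branch effects (log2FC at pre-squaring minus log2FC at squaring, 414 families tested in 1 fit of all 36 libraries) was called for 7 families in the positive direction (1.69%) and 4 in the negative one (0.966%), and at an adjusted p under 0.05 there were 27 (6.52%) and 18 (4.35%), 45 in all (10.9%). Leaving out replicate 1, 2 or 3 of every group left 1, 8 and 2 calls. miR157 was the clearest of the phase change families. At squaring it averaged 5804 ± 1463 RPM in nulliplex and 91926 ± 10767 RPM in normal apices, a log2FC of -3.35 in that fit, against -0.65 at pre-squaring (difference 2.71, SE 0.37, adjusted p = 1.89e-05). miR156 followed, with 1276 ± 371 and 10048 ± 671 RPM at squaring (difference 2.53, SE 0.38, adjusted p = 3.95e-05). At pre-squaring the libraries of miR156 overlapped. In the squaring libraries miR166a-3p alone took 60.8%, 56.0% and 61.1% of nulliplex reads and 23.2%, 24.2% and 23.4% of normal reads. A larger share for it lowers the RPM of other families in nulliplex apices, while the fitted differences use TMM scaling.

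miR166 was 599578 ± 30284 RPM in nulliplex and 239516 ± 6000 RPM in normal apices at squaring, so its branch effect was smaller at pre-squaring (difference -1.61, SE 0.26, adjusted p = 8.76e-05). miR390 went the other way, with a log2FC of 0.95 at pre-squaring and -0.03 at squaring in the fit of all libraries (difference 0.98, SE 0.28, adjusted p = 0.022). The miR172 difference of 2.62 (adjusted p = 0.00164) was counted with a second name, miR172e-3p, which lay within 3% of miR172a in each of the 7 libraries where both exceeded 200 reads. Without that name it was 1.88 (SE 0.46, adjusted p = 0.00874). For miR165 and miR168 the difference from squaring did not pass (0.46 and -0.21, adjusted p = 0.943 and 0.9999).

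In seedlings 1 family was called against pre-squaring (0% higher, 0.242% lower), miR8136, and 4 had an adjusted p under 0.05 (3 higher, 0.725%, and 1 lower, 0.242%). No family was called when replicate 1, 2 or 3 of every group was left out. miR399 was among the 4. It averaged 9.80 ± 1.78 RPM in nulliplex and 21.03 ± 10.1 RPM in normal seedlings, the opposite order to pre-squaring (difference 2.52, SE 0.61, adjusted p = 0.032). miR3267 differed too (difference 2.09, SE 0.44, adjusted p = 0.012), with 243 ± 26.6 RPM in nulliplex and 490 ± 285 RPM in normal seedlings. Against G. hirsutum at the same stage 0 of 414 families passed either threshold in edgeR (0%), 35 had an unadjusted p under 0.05 (8.45%), and DESeq2 called 11. The difference for miR165 was 1.24 (SE 0.53, adjusted p = 0.483) and for miR390 0.64 (SE 0.28, adjusted p = 0.483). Neither passed, which does not show that the species were alike.

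**Figure D5:**
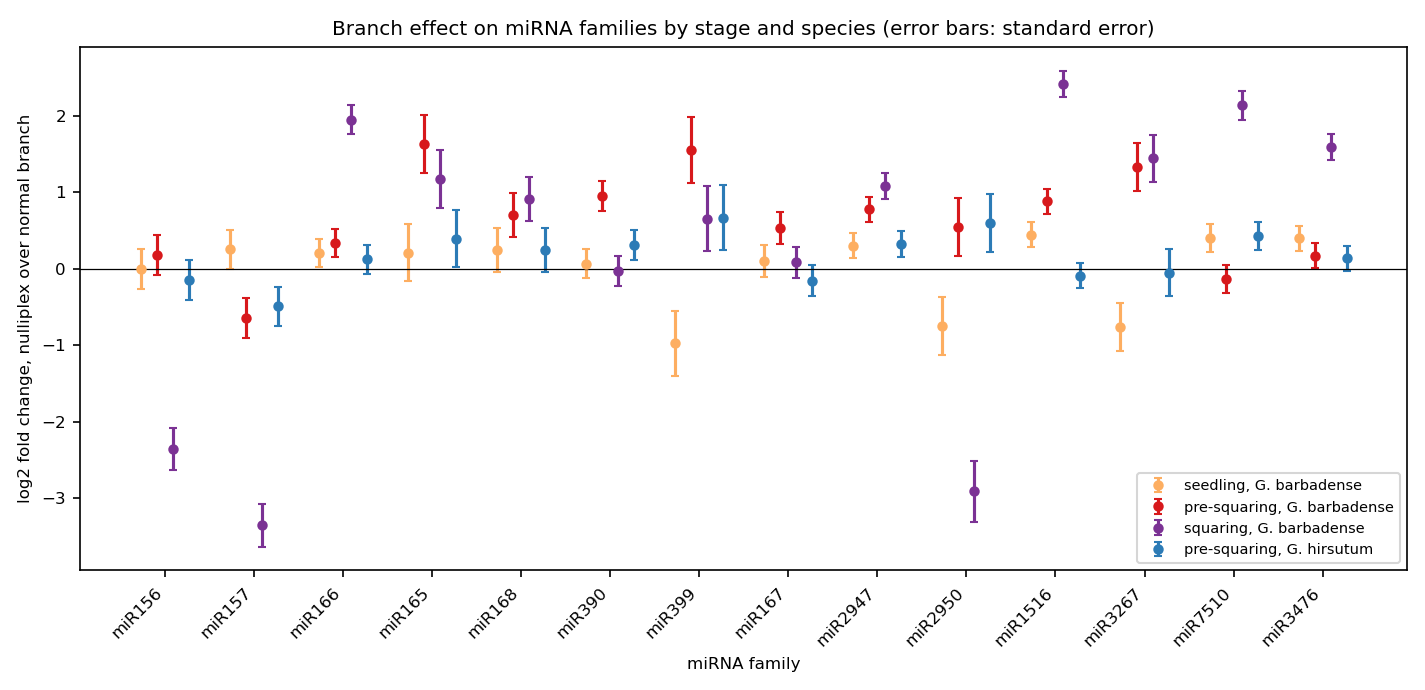
Fitted log2FC of nulliplex over normal branch (points) with standard errors (bars) for 14 families in G. barbadense seedlings (orange), pre-squaring (red) and squaring (purple) apices, and at pre-squaring in G. hirsutum (blue), from 1 fit of all 36 libraries. For miR156 and miR157 the pre-squaring points lie at 0.17 and -0.65 and the squaring points at -2.36 and -3.35.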

How the data were processed

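Small RNA of shoot apices was sequenced with 3 libraries a group. Per the labels and methods of the study, the authors trimmed and filtered the reads, aligned them to the G. hirsutum genome with SOAP2 set for perfect matches, compared them with miRBase by BlastN and predicted further miRNAs with Mireap. The deposited small RNA values are raw counts per miRNA name in 1 table. For mRNA the authors deposited read counts per gene and RPKM. Fits used the counts, and RPKM is shown for level only.

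Names starting with miR were tested singly, in 1 fit with the predicted miRNAs, and as sums by family number, with edgeR 4.0.16 in R 4.3.3 (quasi-likelihood test, TMM, filterByExpr with a minimum count of 10, two-sided, Benjamini-Hochberg adjustment over all rows of the fit). The SE of a log2FC was derived from its F statistic. The DEM and DEG threshold was an adjusted p under 0.001 with an absolute log2FC over 1, and a second threshold was an adjusted p under 0.05. RPM uses known plus predicted reads. Folds against a group without reads use a floor of 3 counts over the group, which takes the absence as sampling alone. Differences between branch effects were contrasts in 1 fit of 36 libraries. The fits were tested on simulated data of this design, in which edgeR recovered changed rows at the second threshold but none at the first. Libraries of a line differed by far more than sampling noise (chi-square per degree of freedom 50.3 to 184.2).

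Named were families past either threshold (10 largest rises and 10 largest falls), list families averaging at least 100 RPM in a group, the 10 families with the most reads, and the miRNAs and targets the study linked. The members and lists were chosen with earlier results of these data known. Alternatives were DESeq2 1.42.0, limma 3.58.1 on log2(RPM + 1), library totals, no filter, all 36 libraries, a replicate block, known names alone, near-identical names left out and each library left out. A robust prior, predicted miRNAs kept as single rows and miR172e-3p left out were chosen after seeing the data.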

Additional observations from a re-analysis of the deposited data

Results flagged for a closer look

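The branch effect (log2FC of nulliplex over normal) at pre-squaring differed from that at another stage by the contrast test (edgeR, adjusted p under 0.05) for the following named families. Against seedlings the difference was 2.52 for miR399 and -11.27 for miR8136, the second resting on groups without reads, so that the fitted value depends on the prior count and is no bound.

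Against squaring, where the pre-squaring effect was the more positive, the difference was 2.71 for miR157, 2.53 for miR156 and 3.45 for miR2950. It was 2.62 for miR172, and 1.88 without the name miR172e-3p. It was 4.67 for miR8636, 2.85 for miR8175, 2.27 for miR7484, 1.82 for miR7495, 1.17 for miR169, 1.00 for miR7505 and 0.98 for miR390. It was negative for miR7510 (-2.27), miR166 (-1.61), miR3476 (-1.42), miR482 (-1.40) and miR162 (-1.29). For miR5072 (19.35) and miR2913 (-10.22) a group had no read and the value is again no bound.

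Outside the known names, 6 predicted miRNAs had reads in all 3 miGb2np libraries and none in miGb2WT, with an adjusted p under 0.05 (edgeR), and 6 others had the reverse. Their mean RPM in miGb2np was 359.7 for predicted miRNA 245, 51.5 for 1355, 34.3 for 1389, 28.9 for 1311, 27.9 for 1314 and 13.4 for 1351. No sequence or target of these was analysed here.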

How the results depend on the processing

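At the DEM threshold edgeR called 0 names and 0 families, whereas DESeq2 called 12 names higher and 16 lower and 10 families higher and 13 lower, limma 6 and 10 names and 4 and 7 families, the fit of all 36 libraries 2 and 2 names and 1 and 1 families, known names alone 2 and 3 names, and the robust prior, chosen after seeing the data, 1 family higher. At the 5% threshold the 23 higher and 24 lower names became 6 and 8 with no filter and 7 and 7 with all 36 libraries, and the 22 and 20 families became 9 and 4 with all 36 libraries, while DESeq2 called 31 families lower. With 1 library left out in turn there were 13 to 23 names higher and 7 to 20 lower, and 11 to 22 families higher and 7 to 22 lower, and 0 at the DEM threshold. Of 26 named families called at 5%, 11 kept the call in every such fit and 6 also under every other setting except the replicate block. Apart from miR2947 and miR390, these 11 had no read in one line.

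With the replicate block 0 names and 0 families passed 5% in either direction. Same-number correlations of deviations were -0.12, 0.02 and 0.17, and these few values cannot show whether replicate numbers pair the libraries. Whether the calls lost under the block reflect a shared replicate effect was not tested, so their loss stands as a limit. For the contrasts the block gave 1 family at 5% against G. hirsutum and 2 against seedlings, and the ratio kept its direction.

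Of contrast calls, DESeq2 gave 11 against G. hirsutum (19 at 5%), 40 against squaring (89 at 5%) and 15 against seedlings (38 at 5%), and no filter gave 2 at 5% against seedlings. Leaving out a replicate gave 0 to 1 calls (0 to 3 at 5%) against G. hirsutum, 1 to 8 (15 to 22) against squaring and 0 (1 to 5) against seedlings. The difference in the miR156 plus miR157 to miR172 ratio ran from -0.36 to -0.15 with 1 library left out. Of 32 target genes, 13 to 24 were called with 1 library left out, 32 with DESeq2, 29 with no filter and 22 with the replicate block.

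None of the 43 named results called at 5% changed direction under the alternatives run. The 17 single names among them and many of the families had no read in one line, so their direction could not turn. Most of those names were also counted as a family. The fit of all 36 libraries kept 16 of the 43 calls and no filter 34, and leaving out 1 library kept 21 to 35. The log2FC turned in 9 results without a call. miR3954 as a name was -0.0019 with DESeq2, -0.16 with library totals, -0.011 with all 36 libraries, -0.17 with limma, and between -0.12 and 0.13 with 1 library left out. As a family it was -0.0026 with DESeq2, -0.16 with library totals, -0.0041 with the replicate block and -0.17 with limma, and between -0.17 and 0.14 with 1 library left out. With library totals and limma it was -0.040 and -0.082 for miR156, -0.062 and -0.059 for miR3476, -0.068 and -0.066 for miR162 and -0.16 and -0.14 for miR7484. miR2111 was -0.058 with the replicate block and -0.26 with limma. With 1 library left out the range was -0.090 to 0.15 for miR7484, -0.17 to 0.74 for miR2111, -0.62 to 0.036 for miR482 and -0.28 to 0.19 for miR530. The cause was not tested.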
